A study of Mus musculus with 56 samples.

Results

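The BCL2 family decides whether a T cell lives or dies at the mitochondrial outer membrane. The pro-survival members, BCL2, BCL-xL (*Bcl2l1*), MCL1 and BCL2A1, hold the effectors BAX and BAK (*Bak1*) in check, and the effectors, once released, open the membrane and let cytochrome c out to start the caspase cascade. The BH3-only members BIM (*Bcl2l11*), BID, PUMA (*Bbc3*) and NOXA (*Pmaip1*) report stress or loss of growth factor by binding the pro-survival members. In CD8 T cells, signals through the IL-7 receptor keep *Bcl2* on, and resting memory cells are known for high *Bcl2*. Here the 10 genes named above, with *Bcl2a1b* as the BCL2A1 gene, were taken by symbol from the 55359 genes of the count table.

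The cells were TFGS, CD8 T cells that bind the OVA:Kb tetramer and so recognise an antigen of fetus and graft. They were sorted for RNA-Seq from spleen and lymph nodes of female C57BL/6 mice, with 200 cells per library. Naive mice were untreated, and Sensitized mice had rejected an allogeneic skin graft from the 2W-OVA.BALB/c strain, which carries the OVA antigen, at least a month earlier. After semi-allogeneic pregnancy by a male of that strain, and within days of delivery, naive mice gave N+P C1 (PD1-) and N+P C5 (PD1+CD73+), and grafted mice gave S+P C4 (PD1-), S+P C5 (PD1+CD73+) and S+P C7 (PD1+CD73-). The T cells came from the normal repertoire of these mice, and the labels give no PD1 or CD73 gate for Naive and Sensitized cells. Counts of technical libraries were added up, which left 30 samples. There were 4 Sensitized samples and 3 in each of the Naive and N+P groups. S+P C4 had 6, S+P C5 had 6 and S+P C7 had 5, since the only library of replicate 2 was nearly identical to 1 of the 2 libraries of replicate 1 and both replicates were counted as 1 sample.

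The samples held 15547934 to 54809406 counts. A floor of 3 counts, which covers counting error only, was worth 0.0539 to 0.298 CPM (counts relative to the library total, scaled with TMM). In 3 samples few genes were detected, with 8002 in replicate 2 and 7436 in replicate 3 of S+P C4 and 7879 in replicate 3 of S+P C7, where the other samples had 12383 to 26805. CD8 T cell markers (*Cd8a*, *Cd8b1*, *Cd3d*, *Cd3e*, *Cd3g* and *Trac*) were detected in every group, at a summed level of 4490 to 8787 CPM. *Cd4* was at 0 in all samples of 4 groups and at most 3.71 CPM elsewhere. S+P C7 replicate 3 held 8233 CPM of B cell markers, nearly all *Ighm*, and 19860 CPM of globin genes. Values without these 3 samples are given beside some of the results that they move.

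Of the 10 members, all passed the filter on low counts. None was past both thresholds (adjusted p under 0.1 and absolute log2 fold change above 0.9) in any of 11 pairwise comparisons. Nor was any in the difference between memory and naive cells, S+P C5 against Sensitized minus N+P C5 against Naive. The test was the quasi-likelihood test of edgeR, with Benjamini-Hochberg adjusted p-values over 19657 genes. What stood out without adjustment was lower *Bcl2* and *Bbc3* in the PD1+ subsets of grafted mice after pregnancy, and higher *Bcl2a1b* in Sensitized than in Naive cells and in N+P C5 than in N+P C1 cells.

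The members differ widely in level. Genes were compared per kilobase of merged exon, the union over all annotated isoforms, so their order depends on the annotation. On this scale *Bax* had the highest median over the 30 samples, 42.3 CPM per kb. This median leans on the S+P groups, which hold most samples. *Bcl2a1b* followed at 36.2, *Mcl1* at 30.1 and *Bcl2* at 18.5 CPM per kb. *Bcl2l1* (5.45), *Pmaip1* (4.56), *Bid* (3.26) and *Bcl2l11* (2.06 CPM per kb) lay lower, and *Bbc3* (0.376) and *Bak1* (0.237 CPM per kb) were lowest. The order differed in Naive samples, where the mean of *Bcl2a1b* was 7.69 CPM per kb, below *Mcl1* (28.7) and *Bcl2* (23.7), and that of *Bbc3* was 4.51 CPM per kb, above *Bid* (3.83) and *Bcl2l1* (3.36). *Bbc3* was at 0 in 5 of 30 samples and *Bak1* in 3.

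*Bcl2*, the founding survival gene, lies on chromosome 1 from 106465908 to 106642060 (GRCm39, minus strand). It was detected in every sample. Its level in Naive samples was 135, 309 and 211 CPM, and in N+P C1 samples 354, 336 and 508 CPM. N+P C5 samples had 221, 244 and 267 CPM. Sensitized samples had 219.9, 366, 242 and 294 CPM. S+P C4 ranged from 103 through a median of 154 to 464 CPM, with the highest value in replicate 3, which stood apart in genes detected. S+P C5 ranged from 75.4 through 115 to 158 CPM, and S+P C7 samples had 67.3, 26.7, 106, 117 and 145 CPM. Every S+P C5 and S+P C7 sample was below every Sensitized sample, and every N+P C1 sample was above every Naive sample. In bulk samples a lower level per cell and fewer cells that express the gene cannot be told apart. In the order of the 7 group means, from N+P C1 through Sensitized, N+P C5, Naive and the S+P groups in the order C4, C5 and C7, each neighbouring pair overlapped.

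**Figure D1:**
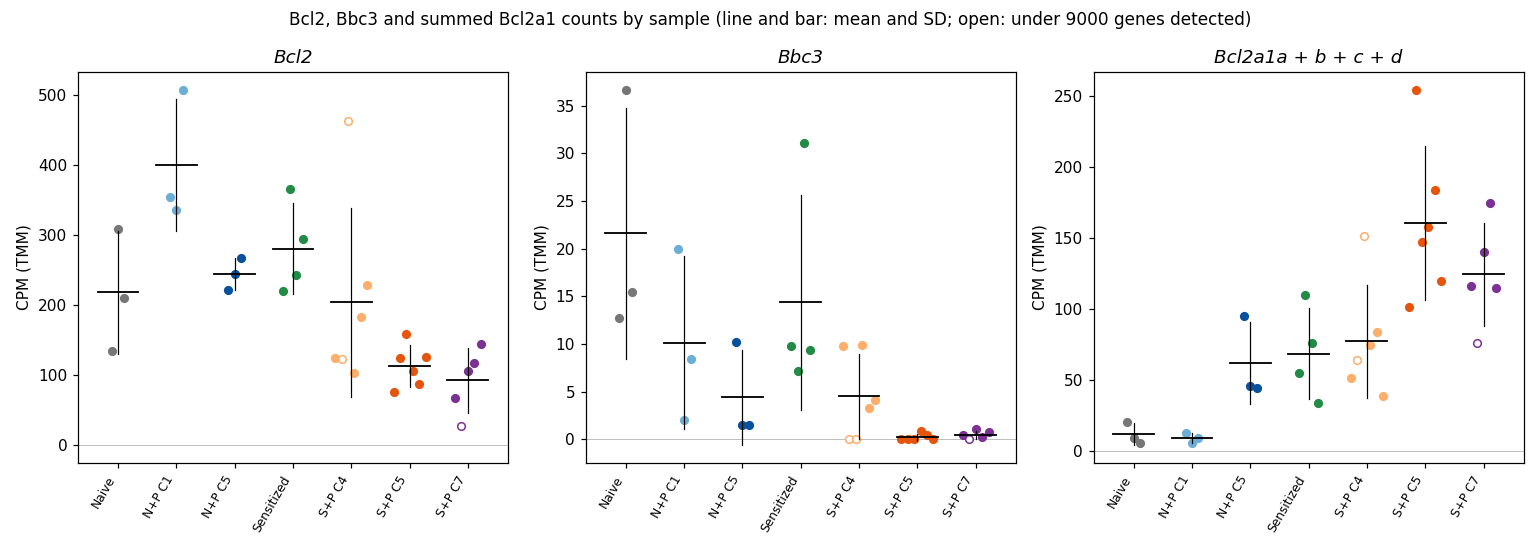
Level (CPM, TMM, linear axis) of *Bcl2*, *Bbc3* and the sum of the Bcl2a1 genes in each of the 30 samples by group, with group mean and SD as line and bar and open circles for the 3 samples with under 9000 genes detected. *Bcl2* in S+P C5 (75.4 to 158) and S+P C7 (26.7 to 145) lies below Sensitized (219.9 to 366), and *Bbc3* in both is near 0.

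The mean of *Bcl2* in S+P C5 was 113 ± 29.8 CPM (SD, n = 6) against 281 ± 64.8 in Sensitized (n = 4), a log2 fold change of -1.32 (standard error 0.41). The unadjusted p was 0.00312 and the adjusted p 0.277. S+P C7 had a mean of 92.2 ± 45.9 CPM (n = 5). Its log2 fold change against Sensitized was -1.61 (standard error 0.43, p = 0.000845, adjusted p = 0.473). *Bcl2* was also lower in S+P C5 than in N+P C5, the naive cells of the same gate (log2 fold change -1.11, standard error 0.44, p = 0.0170, adjusted p = 0.809), and those groups did not overlap. The difference between S+P C5 against Sensitized and N+P C5 against Naive was -1.48 on the log2 scale (standard error 0.67, p = 0.0355, adjusted p = 0.711). It joins pregnancy with the PD1+CD73+ gate, since the labels give no such gate for Naive and Sensitized cells. Between samples with the same replicate number, *Bcl2* was lower in S+P C5 than in S+P C4 in 4 of 6 pairs, and lower in N+P C5 than in N+P C1 in 3 of 3. The fitted difference of S+P C5 against S+P C4 (-0.86, standard error 0.38, adjusted p = 0.314) was -0.45 without S+P C4 replicate 3.

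*Bbc3* (PUMA, chromosome 7 from 16042318 to 16052130, plus strand) can bind every pro-survival member. Its level was 12.7, 36.7 and 15.4 CPM in Naive and 9.81, 7.20, 31.1 and 9.35 CPM in Sensitized samples. N+P C1 samples had 20.0, 2.06 and 8.47 CPM and N+P C5 samples 10.2, 1.55 and 1.52 CPM. S+P C4 ran from 0 through 3.69 to 9.94 CPM, with the 2 zeros in replicates 2 and 3. S+P C5 ran from 0 through 0.0335 to 0.896 CPM. S+P C7 samples had 0.418, 0, 1.07, 0.259 and 0.758 CPM. All samples of both PD1+ S+P groups were below all Naive, Sensitized, N+P C1 and N+P C5 samples.

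In S+P C5, 4 of the 6 samples held no more than 1 count of *Bbc3*, and the other 2 held 30 and 18, where the Sensitized samples held 144 to 1026. The group mean was 0.237 ± 0.369 CPM (n = 6) in S+P C5 and 14.4 ± 11.2 CPM (n = 4) in Sensitized. The log2 fold change was -5.89 (standard error 1.69, p = 0.00143, adjusted p = 0.277), and against Sensitized in S+P C7 it was -4.83 (standard error 1.74, p = 0.00920, adjusted p = 0.473). S+P C5 was also lower than S+P C4 (-4.23, standard error 1.52, p = 0.00905, adjusted p = 0.297) and than N+P C5 (-4.20, standard error 1.63, p = 0.0148, adjusted p = 0.809). The last rests on N+P C5 replicate 1, without which it was -2.67 (p = 0.135). Without S+P C5 replicate 4, which holds most of the counts of that group, the differences were -7.01 against Sensitized, -5.36 against S+P C4 and -5.32 against N+P C5, and without Sensitized replicate 3 that against Sensitized was -5.17. Without the 3 samples of few genes, S+P C4 had a mean of 6.78 ± 3.59 CPM (n = 4) in place of 4.52 ± 4.47 (n = 6), and S+P C5 against S+P C4 was -4.82 on the log2 scale. The mean in N+P C5 was 4.42 ± 5.00 CPM (n = 3). Its log2 fold change against Naive was -2.29 (standard error 1.97, p = 0.255).

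For S+P C5 against Sensitized, where 0.0712% of all genes tested were past both thresholds, 2 members (*Bcl2* and *Bbc3*) had an unadjusted p under 0.05, both lower, and 7.72% of all genes were lower at that p. The same 2 members were lower without overlap between groups, a pattern that 1.42% of genes had. For S+P C7 against Sensitized (0.0305% called), the same 2 were lower at an unadjusted p under 0.05 (2.84% of genes) and without overlap (1.38%). The 3 samples that stood apart are in S+P C4 and S+P C7. They reach S+P C5 against Sensitized only through the fit that all 7 groups share. Leaving them out changed the call. *Bcl2* and *Bbc3* then passed both thresholds in S+P C5 against Sensitized (log2 fold changes -1.29 and -5.88, adjusted p = 0.0124 and 0.0192 with edgeR), where 1.02% of 19553 genes did. *Bcl2* also passed in S+P C7 against Sensitized (-1.37, adjusted p = 0.0470; 0.353% of genes). With DESeq2 on all 30 samples both genes passed in both comparisons (2.63% and 2% of the 40335 genes with any count). The filter on low counts was not applied there. DESeq2 shares, here and below, are thus over more genes than edgeR shares, many of them with few counts. Fitted on the 2 groups alone, edgeR called *Bcl2* in S+P C5 (adjusted p = 0.0368; 1.06% of genes) but not *Bbc3*.

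Marker levels also differed between these groups. The summed level of proliferation genes was 215 to 403 CPM in S+P C5 and 44.4 to 1384 CPM in S+P C7, against 35.3 to 274 CPM in Sensitized. NK cell markers ran from 0 to 62.2 CPM in S+P C5 and from 53.3 to 126 CPM in Sensitized, with *Ncr1* at 0 in S+P C5. B cell markers ran from 154 to 281 and from 211 to 373 CPM, with *Ms4a1* at 0 in both groups. Myeloid markers ran from 30.6 to 111 and from 43.1 to 399 CPM. Globin genes ran from 0.209 to 61.7 and from 0.121 to 5.80 CPM. In S+P C7 the NK cell list ran from 3.55 to 328 CPM, the B cell list from 91.4 to 8233 CPM and the myeloid list from 57.5 to 136 CPM. Their part in the *Bcl2* and *Bbc3* levels was not tested.

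*Bcl2a1b* encodes A1, a pro-survival member known to be switched on by antigen receptor and NF-kB signals. The mouse has 4 BCL2A1 genes on chromosome 9, and reads that mapped to more than 1 of them were removed before counting. *Bcl2a1b* lies from 89081262 to 89089889 on the plus strand (GRCm39), and *Bcl2a1d*, which is no member of the list, from 88605338 to 88613967 on the minus strand. The coding sequence of *Bcl2a1b* differs from that of *Bcl2a1d* at 6 of 519 positions and from that of *Bcl2a1a* at 11. *Bcl2a1c* differs from *Bcl2a1b* at 69 of the 387 positions compared. Positions were paired by their order without alignment, so an inserted or deleted base would raise this count. It is no measure of how alike these 2 genes are. The first 90 coding bases of the 4 genes are shown. No stretch of 90 held more differences between *Bcl2a1b* and *Bcl2a1d*. For *Bcl2a1c* most of the differences counted without alignment lie outside it. Positions at which any of the 4 differ are in capitals:
Bcl2a1b: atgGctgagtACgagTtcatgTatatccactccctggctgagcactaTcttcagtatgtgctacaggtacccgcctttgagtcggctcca
Bcl2a1d: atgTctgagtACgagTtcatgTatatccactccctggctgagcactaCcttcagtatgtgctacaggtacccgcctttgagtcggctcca
Bcl2a1a: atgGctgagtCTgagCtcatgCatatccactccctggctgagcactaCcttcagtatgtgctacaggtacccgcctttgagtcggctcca
Bcl2a1c: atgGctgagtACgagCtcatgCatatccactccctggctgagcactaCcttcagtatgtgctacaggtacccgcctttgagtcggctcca
These lie at chr9:89081413-89081502 on the plus strand, chr9:88613683-88613772 on the minus strand, chr9:88839104-88839193 on the plus strand and chr9:114159224-114159313 on the plus strand. Of the 677 windows of 150 bases, the length of 1 read, in the *Bcl2a1b* transcript, 14.3% were found unchanged in another of the 4 genes, against 30.5% for *Bcl2a1d* and 28.2% for *Bcl2a1a*. A read from such a window could be placed in 1 gene only where its mate differed, so the levels of the single genes may leave out reads.

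*Bcl2a1b* was at 6.67, 8.85 and 3.55 CPM in Naive samples and at 8.07, 2.54 and 3.22 CPM in N+P C1 samples. It was at 38.7, 15.0 and 15.7 CPM in N+P C5, and at 17.2, 55.3, 28.5 and 21.4 CPM in Sensitized samples. S+P C4 ran from 12.7 through 31.6 to 149.9 CPM, with the highest again in replicate 3. Its mean was 52.0 CPM (n = 6), and 24.7 CPM (n = 4) without the samples of few genes. S+P C5 ran from 31.2 through 44.6 to 96.9 CPM, and S+P C7 samples had 33.3, 6.73, 39.1, 48.3 and 33.7 CPM. The Naive and N+P C1 samples were all below those of the Sensitized, N+P C5, S+P C4 and S+P C5 groups, and of the S+P C7 samples replicate 3 alone lay within their range.

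Against Naive, *Bcl2a1b* was 2.27 higher on the log2 scale in Sensitized (standard error 0.91, p = 0.0180, adjusted p = 0.627) and 1.86 in N+P C5 (standard error 0.93, p = 0.0532, adjusted p = 0.764). Against N+P C1 it was 2.33 in N+P C5 (standard error 0.94, p = 0.0192, adjusted p = 0.919), and higher in N+P C5 in 3 of 3 pairs of the same number. Leaving out 1 sample at a time gave 1.81 to 2.58 in Sensitized against Naive (p up to 0.0796, without Naive replicate 3). It gave 1.74 (p = 0.103) without N+P C5 replicate 1 and 3.01 (p = 0.0154) without N+P C1 replicate 1 in N+P C5 against N+P C1, and 1.27 (p = 0.225) without N+P C5 replicate 1 against Naive. In Sensitized against Naive, 1 member, *Bcl2a1b*, was higher at an unadjusted p under 0.05, as were 3.84% of all genes, and 0.153% were past both thresholds. Among genes higher without overlap there (3.78%), it was the only member. In N+P C5 against N+P C1, 1 member, *Bcl2a1b*, was higher at an unadjusted p under 0.05 (2.39% of genes), and 0.00509% of genes were called. Without overlap there, *Bcl2a1b* and *Bcl2l1* were higher (5.48% of genes) and *Bcl2* and *Bcl2l11* lower (5.29% of genes). DESeq2 called *Bcl2a1b* in Sensitized against Naive and in N+P C5 against N+P C1 (2.72% and 2.05% of genes called), as did edgeR in the first without the 3 samples that stood apart (adjusted p = 0.0862; 0.782% of genes). Neither Naive nor Sensitized holds any of those 3 samples, which act there through the shared fit.

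Markers of other cells differed between Naive and Sensitized samples too. NK cell markers were at 0 to 0.0823 CPM in Naive, with *Ncr1* at 0, and at 53.3 to 126 CPM in Sensitized. B cell markers were at 671 to 1369 CPM in Naive and 211 to 373 CPM in Sensitized, and myeloid markers at 1.59 to 47.6 and 43.1 to 399 CPM. NK cell markers were at 0.0287 to 1.11 CPM in N+P C1 and 2.42 to 9.42 CPM in N+P C5. The part of these cells in the *Bcl2a1b* level was not tested.

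The counts of the 4 BCL2A1 genes were also summed, since they share sequence. The sum was 5.89 to 20.8 CPM in Naive, 5.50 to 12.8 CPM in N+P C1, 44.5 to 95.2 CPM in N+P C5 and 34.1 to 109.7 CPM in Sensitized samples. It was 39.0 to 151 CPM in S+P C4, 101 to 254 CPM in S+P C5 and 76.1 to 174 CPM in S+P C7, so that no sample of these 5 groups overlapped those of Naive and N+P C1. Fitted as 1 row in place of *Bcl2a1b*, the sum was 2.50 higher on the log2 scale in Sensitized against Naive (standard error 0.63, p = 0.000360, adjusted p = 0.181), 2.36 in N+P C5 against Naive (adjusted p = 0.423) and 2.76 in N+P C5 against N+P C1 (adjusted p = 0.748). None of these passed the adjusted threshold in edgeR. Over all samples *Bcl2a1d* held 63.6% of the counts of the 4 genes and *Bcl2a1b* 36.2%. That split was set largely by S+P C5 (21051 counts of *Bcl2a1d* and 10269 of *Bcl2a1b*) and S+P C7 (16310 and 6029). Summed over samples, *Bcl2a1b* held more than *Bcl2a1d* in Naive (523 and 428 counts), N+P C1 (453 and 442) and S+P C4 (6133 and 4765). In S+P C4 the excess came from replicates 2 and 3, both of few genes. They held 1219 and 1510 counts of *Bcl2a1b* against 4 and 16 of *Bcl2a1d*. Single samples went either way in Naive (replicate 1, 162 and 344, replicate 2, 267 and 22). They did so too in N+P C1 (replicate 1, 268 and 156, replicate 3, 112 and 201). *Bcl2a1a* and *Bcl2a1c* had 74 and 85 counts in all.

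*Bcl2l1* (BCL-xL, chromosome 2 from 152622582 to 152673655, minus strand) was at 11.3 to 21.7 CPM in Naive and 12.6 to 22.8 CPM in N+P C1, below all 3 N+P C5 samples with 43.4, 39.3 and 41.0 CPM. The log2 fold change of N+P C5 against Naive was 1.26 (standard error 1.45, p = 0.395). In grafted mice *Bcl2l1* scattered from 0 to 84.2 CPM, with 0 in S+P C4 replicate 3 and in S+P C7 replicate 3. *Mcl1*, which naive and memory T cells cannot do without, lies on chromosome 3 from 95566026 to 95570487 on the plus strand. It was the steadiest of the well expressed survival genes, with group means between 96.0 and 134 CPM, and its absolute log2 fold change stayed at or below 0.41 in every comparison.

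Per kilobase, the make-up of the pro-survival transcripts differed between groups. *Bcl2* took 33.3% ± 10.9 (SD, n = 3) of the sum of *Bcl2*, *Mcl1*, *Bcl2l1*, *Bcl2a1b* and *Bcl2a1d* in Naive and 46.1% ± 3.51 (n = 3) in N+P C1. It took 18.9% ± 5.22 (n = 3) in N+P C5 and 21.1% ± 4.25 (n = 4) in Sensitized, and 13.8% ± 4.52 (n = 6) in S+P C4. Its share was lowest in the PD1+ subsets of grafted mice, 5.30% ± 1.54 for S+P C5 (n = 6), with S+P C7 at 5.12% ± 2.18 (n = 5). *Bcl2a1d* took 29.1% ± 11.2 in Sensitized, 50.2% ± 12.3 in S+P C5 and 58.3% ± 11.4 of the sum for S+P C7. Without the 3 samples of few genes, the share of *Bcl2* was 13.4% in S+P C4 and 5.69% in S+P C7. That of *Bcl2a1d* was then 32.4% in place of 21.7% for S+P C4, and 53.3% in S+P C7. The share of *Bcl2a1b* in S+P C4 was 22.3% in place of 36.8%. The summed level of the 5 genes was 70.1 ± 6.96 CPM per kb in Naive, 147 ± 35.3 in Sensitized and 241 ± 71.0 CPM per kb in S+P C5. These shares are a description of transcript levels, with no test, and depend on the annotated exon lengths. Shares of 1 sum are not independent of each other.

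**Figure D2:**
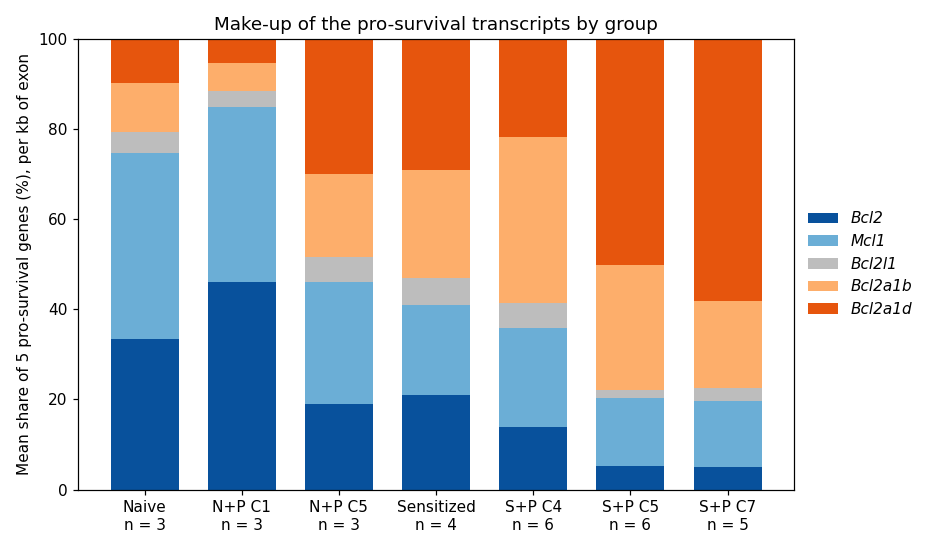
Mean share (percent, per kb of merged exon) of each of 5 pro-survival genes in their sum, by group, stacked to 100. The share of *Bcl2* goes from 46.1% in N+P C1 to 5.30% in S+P C5, with S+P C7 at 5.12%, where *Bcl2a1d* takes 50.2% and 58.3%.

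Neither effector had an unadjusted p under 0.05 in any comparison. *Bax* (chromosome 7 from 45111015 to 45116325, minus strand) had group means from 71.1 CPM in N+P C1 to 94.3 CPM in S+P C7, and its smallest unadjusted p over the comparisons was 0.587. S+P C4 replicate 3 held 0.0993 CPM of *Bax*, where the other 29 samples held 27.5 to 149 CPM. Without the 3 samples of few genes the mean of *Bax* was 109.6 CPM in S+P C4, in place of 79.0, and 107.9 CPM in S+P C7. *Bak1* (chromosome 17 from 27238784 to 27247983, minus strand) was at 2.03 CPM or less in every sample. Its exons overlap *Ggnbp1* on the other strand, and whether the counting used strand is not given in the sources used here.

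*Bcl2l11* (BIM, chromosome 2 from 127967958 to 128004476, plus strand) is the BH3-only gene best known for removing spent T cells. It was at 51.3, 43.0 and 42.4 CPM in N+P C1, above all Naive samples (13.5, 21.2 and 40.0 CPM) and above all N+P C5 samples (39.1, 17.1 and 24.9 CPM). Sensitized samples had 25.8, 5.10, 41.6 and 20.5 CPM. S+P C4 ran from 0 through 18.7 to 47.3 CPM, S+P C5 from 3.23 through 7.98 to 24.4 CPM, and S+P C7 samples had 44.2, 9.11, 29.0, 10.8 and 7.02 CPM. The lowest group was S+P C5, at -1.19 on the log2 scale against Sensitized (standard error 0.93, p = 0.212, adjusted p = 0.846), and the samples of the 2 groups overlapped. In N+P C1 against Naive, *Bcl2* and *Bcl2l11* were 2 members higher without overlap, as were 4.22% of all genes, and none of the 19657 genes was past both thresholds there (0%). The count at an unadjusted p under 0.05 was 0 members in that comparison (3.23% of genes), and DESeq2 called 0 (1.85% of genes).

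FOXO factors are known to drive *Bcl2l11* and *Bbc3* when growth factor signals are withdrawn. Promoter windows of 300 bases, from 250 before to 50 after each annotated start, were taken from RefSeq (GRCm38.p6). They were looked up for 9 members and all 9 matched, with 14 windows. *Pmaip1*, the remaining member, was left out of the search. The letters GTAAACA on either strand, a FOXO motif, were found in a window of *Bcl2l11* and in a window of *Bbc3* and in none of the other 7 genes, and 4.05% of all genes had it. An NF-kB motif (1.38% of genes) and the STAT motif TTCNNNGAA (9.55%), also searched on both strands, were found in none of the 9. The stretches around the match are shown with the motif in capitals, at chr2:128125788-128125853 and chr7:16310058-16310136, both on the plus strand:
Bcl2l11: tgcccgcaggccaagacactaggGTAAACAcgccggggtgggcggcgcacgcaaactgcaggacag
Bbc3: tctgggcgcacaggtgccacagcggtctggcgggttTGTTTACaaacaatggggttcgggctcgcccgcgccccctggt
The match begins 227 bases before the start in *Bcl2l11* and 167 bases before it in *Bbc3*. A match describes the letters and is not evidence of binding.

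*Bid*, which caspase 8 cleaves to link death receptors to mitochondria, and *Pmaip1* (NOXA), which binds MCL1, were scattered between samples of a group. *Bid* (chromosome 6 from 120862525 to 120894171, minus strand) had group means of 22.0 to 37.5 CPM and was at 0 in 3 samples, 1 of each S+P group, and at 0.0457 CPM in another S+P C5 sample. Its exons overlap *Bcl2l13* on the other strand. *Pmaip1* (chromosome 18 from 66591604 to 66598636, plus strand) had means of 5.11 ± 6.80 CPM in Naive and 4.64 ± 3.90 in N+P C1, and of 14.4 to 48.7 CPM in the other 5 groups, the highest being S+P C4, whose samples ran from 10.9 to 74.5 CPM without those of few genes. Its log2 fold change was 2.09 in Sensitized against Naive (standard error 1.62, p = 0.206) and the samples overlapped.

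**Figure D3:**
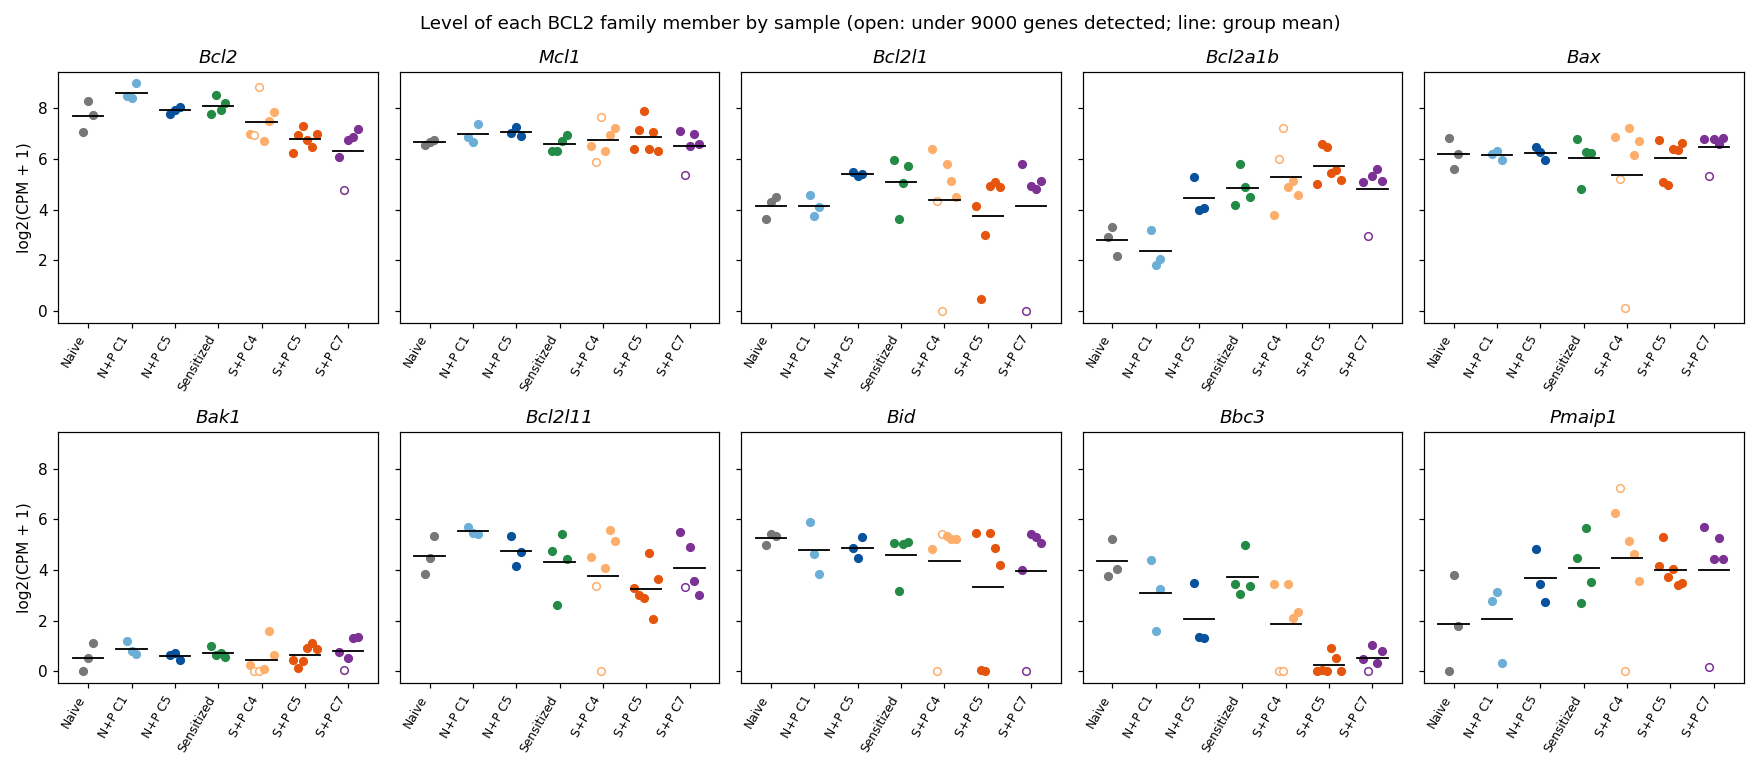
Level of each member as log2(CPM + 1) in each of the 30 samples by group, with the mean of these values as a line and open circles for the 3 samples with under 9000 genes detected. Group means of *Mcl1* (96.0 to 134 CPM) and *Bax* (71.1 to 94.3 CPM) lie close together, *Bak1* is near 0, and *Bbc3* is lowest in S+P C5 and S+P C7.

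Technical libraries show how repeatable each level was. The technical libraries of a sample, of which 23 pairs exist, differed by an SD of 0.35 on the log2(CPM + 1) scale for *Bcl2* and 0.40 for *Mcl1*. The SD was 0.99 for *Bcl2l11*, 1.03 for *Bbc3*, 1.34 for *Bid* and 1.47 for *Pmaip1*. Between samples of a group the SD was 0.62 for *Bcl2*, 1.02 for *Bbc3* and 1.90 for *Bid*. Without the 3 samples that stood apart it was 0.42, 0.81 and 1.43. The technical SDs are those of single libraries without TMM. Those between samples are of summed libraries with TMM, so the 2 kinds cannot be set against each other directly. In 6 of the 23 pairs, 1 library held *Bbc3* and the other none.

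**Figure D4:**
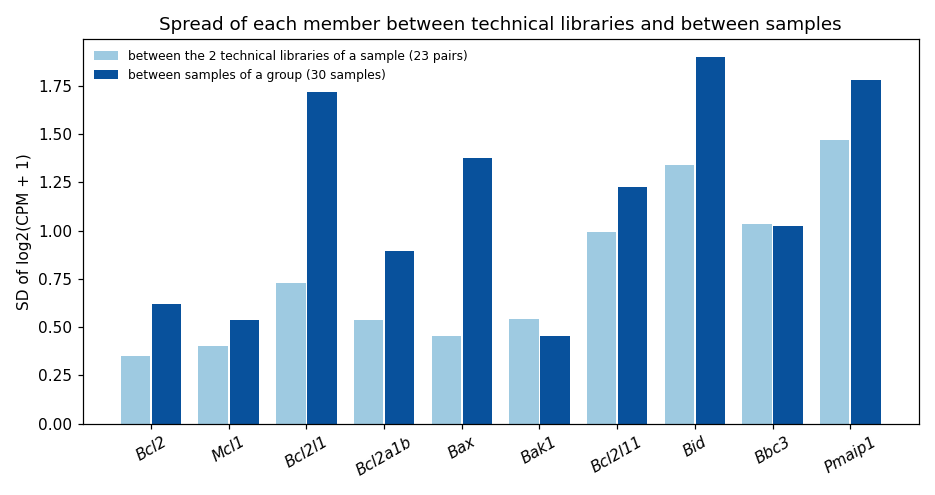
SD of log2(CPM + 1) for each member between the technical libraries of a sample (light bars, 23 pairs) and between samples of a group (dark bars, 30 samples). For *Bbc3* the SDs are 1.03 and 1.02, and for *Bcl2* 0.35 and 0.62. Light bars refer to single libraries without TMM and dark bars to summed libraries with TMM, so they are not directly comparable.

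The remaining comparisons are given by the number of members with an unadjusted p under 0.05. In N+P C5 against Naive (0.0407% of genes called) there were 0 (5.33% of genes), and 3 members were higher and 1 lower without overlap (7.4% and 5.48% of genes). In S+P C4 against Sensitized (0.00509% called) there were 0 of 10 (12.7% of genes), and in S+P C7 against S+P C5 (0% called) 0 of 10 (12.7% of genes). In S+P C5 against S+P C4 (0.0305% called) there were 2, *Bcl2* and *Bbc3*, both lower (5.7% of genes), and DESeq2 called *Bbc3* (2.5% of genes). In S+P C7 against S+P C4 (0.00509% called) there was 1, *Bcl2*, lower (3.52% of genes), and DESeq2 called it (2.51% of genes). In S+P C5 against N+P C5 (0% called) there were 2, *Bcl2* and *Bbc3*, both lower (3.73% of genes), and 3 members were lower without overlap (1.7% of genes), the third being *Bcl2l1*. For S+P C5 against Sensitized minus N+P C5 against Naive (0.0254% called) there was 1, *Bcl2* (3.32% of genes lower). The median log2 fold change of the 10 members was -0.31 in S+P C5 against Sensitized, where that of all genes was -0.01, and 0.14 in Sensitized against Naive, where that of all genes was 0.04.

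**Figure D5:**
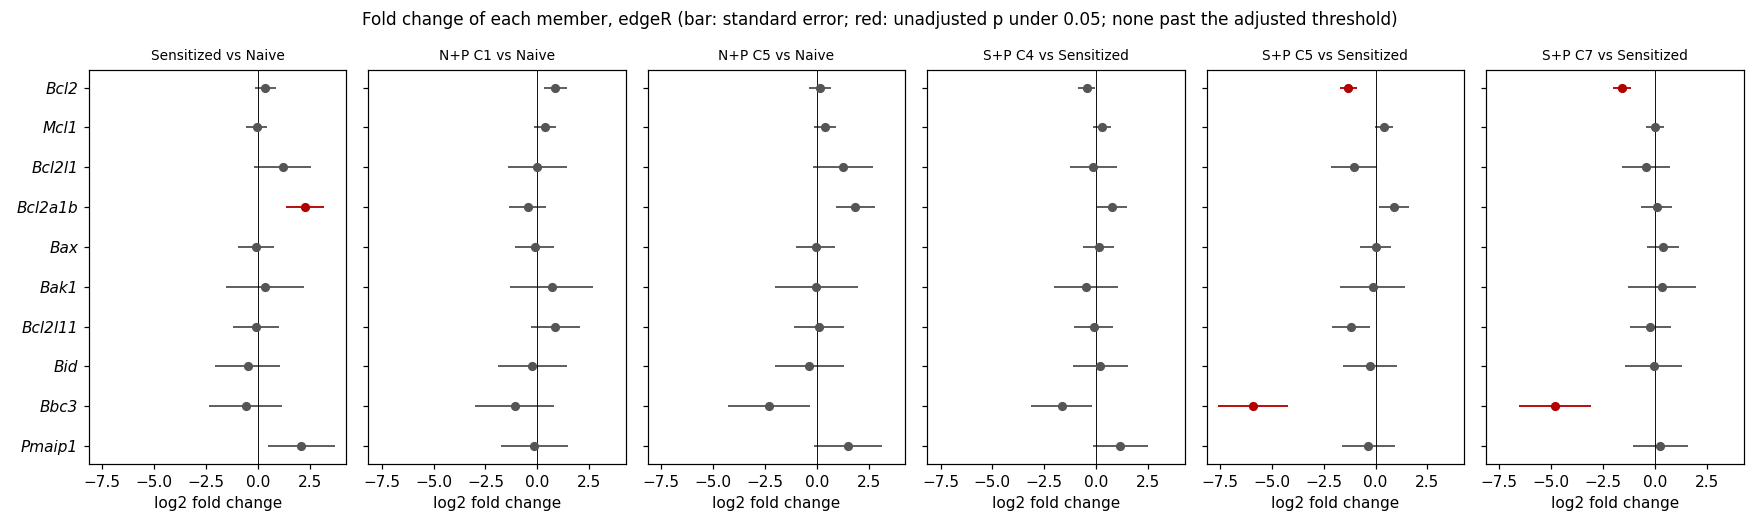
Log2 fold change of each member with its approximate standard error (edgeR, all 7 groups in 1 fit) in 6 comparisons. Of these, 3 are against Naive and 3 against Sensitized, and red marks an unadjusted p under 0.05. *Bcl2a1b* is red in Sensitized against Naive (2.27), and *Bcl2* (-1.32 and -1.61) and *Bbc3* (-5.89 and -4.83) are red in S+P C5 and S+P C7 against Sensitized.

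Of the 16 other BCL2 family genes in the table, 12 were tested, and 0 passed both thresholds in any comparison with edgeR. At an unadjusted p under 0.05, 2 were higher in Sensitized against Naive (3.84% of all genes), 2 were higher in N+P C5 against Naive (3.23% of all genes), and in S+P C5 against Sensitized 1 was higher and 1 lower (5.26% and 7.72% of all genes). The 2 with the smallest p in Sensitized against Naive were *Bcl2a1d* (2.73 higher on the log2 scale with a standard error of 1.10, adjusted p = 0.627) and *Bik*. *Bik* was at 0 in all Naive samples and in Sensitized replicates 1 and 2, and at 3.16 and 1.48 CPM in replicates 3 and 4. In S+P C5 against Sensitized the 2 were *Hrk* (at 0 in all S+P C5 samples and in 3 of 4 Sensitized samples) and *Bcl2l14*. *Bcl2l14* was at 28.0 CPM in S+P C5 replicate 2 and at 2.98 CPM or less in the other samples of both groups. Of 13 genes of the apoptosome and caspases, 0 passed with edgeR, and at an unadjusted p under 0.05 there were 2 higher in S+P C5 against Sensitized (5.26% of all genes) and 1 higher in Sensitized against Naive (3.84% of all genes). *Xiap*, an inhibitor of caspases, had a log2 fold change of 1.33 in S+P C5 against Sensitized (p = 0.0246, adjusted p = 0.297). *Casp9*, the caspase of the apoptosome, had 0 counts in all 3 Naive samples and 0.150 to 10.1 CPM in Sensitized (p = 0.000702, adjusted p = 0.273).

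Of 17 genes of the survival and death inputs, 16 were tested. With edgeR 2 passed in Sensitized against Naive (0.153% of all genes), 1 in S+P C5 against Sensitized (0.0712% of all genes) and 1 in S+P C7 against Sensitized (0.0305% of all genes). *Il7r*, the IL-7 receptor chain, fell in S+P C5 against Sensitized, from 1113 ± 310.1 CPM (n = 4) to 229.9 ± 45.8 CPM (n = 6). The fitted difference was -2.28 on the log2 scale (standard error 0.45, adjusted p = 0.0446). It fell in S+P C7 to 95.2 ± 43.5 CPM (n = 5), a fitted difference of -3.55 on the log2 scale (standard error 0.50, adjusted p = 0.00107). *Fasl*, the death receptor ligand, and *Il2rb*, the shared receptor chain for IL-2 and IL-15, rose in Sensitized against Naive. Their log2 fold changes were 6.12 (standard error 1.33, adjusted p = 0.0566) and 1.62 (standard error 0.37, adjusted p = 0.0903). *Foxo1*, *Foxo3*, *Trp53* and *Stat5b* did not pass in any comparison.

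By Spearman's rho of log2(CPM + 1) over the 30 samples, which share groups and replicate numbers, the 3 genes outside the family most like *Bcl2* among 8237 were *Eml5* (0.83), *Ssbp2* (0.83) and *Fam241a* (0.83). Those most like *Bcl2l11* were *Lpp* (0.77), *Dnm2* (0.72) and *Usp3* (0.72). Those most like *Bcl2a1b* were *Sh2d1a* (0.84), *Cd28* (0.83) and *Wls* (0.77).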

How the data were processed

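RNA-Seq libraries were made by SmartSeq2 and Nextera XT and sequenced as paired reads in 1 run. Per the labels and methods, the authors trimmed reads with cutadapt 3.4, aligned them with STAR 2.6.1b to GRCm39, removed reads mapping to several places and counted genes with featureCounts 2.0.1. They deposited raw counts for 56 libraries. The annotation release and strand setting are not given in the sources used here.

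Members and lists were chosen with earlier results of these data known. Of 2 libraries that were identical, 1 from Naive and 1 from S+P C4, neither was used, and the only library of S+P C7 replicate 2, which correlated at 0.997 with 1 of the 2 of replicate 1, was averaged with it, so that replicates 1 and 2 gave 1 sample. The remaining technical libraries were summed to 30 samples with 15547934 to 54809406 counts. Intervals and floors cover counting error only, since PCR reads without molecular identifiers are not independent molecules. The labels do not say which samples came from the same mouse, and p-values measure the spread between these samples.

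Counts were tested in R 4.3.3 with edgeR 4.0.16 (TMM, filterByExpr with a minimum count of 10, quasi-likelihood test, all 7 groups), with Benjamini-Hochberg adjustment over 19657 genes. The edgeR standard errors are approximate. They were worked back as the absolute log2 fold change divided by the square root of the F statistic of the test. The script was tested on simulated data. Genes outside the members were named by list, as those past both thresholds and those with the smallest p in a comparison, and *Foxo1*, *Foxo3*, *Trp53* and *Stat5b* were named after their values were seen. Some genes of these lists are not reported here. Positions and merged exon lengths are from GENCODE M39 (GRCm39). Alternatives were DESeq2 1.42.0, other scalings, filters and thresholds, only the groups compared, all libraries kept, the BCL2A1 genes summed, samples left out, and a replicate block.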

Additional observations from a re-analysis of the deposited data

Results flagged for a closer look

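A sample far from the others of its group was seen in 8 of 40 sets of a gene and group tested with Dixon's criterion, of which chance flags about 1 in 20. In S+P C4 replicate 3, *Bcl2* was at 464 CPM (others 103 to 228) and *Bcl2a1b* at 149.9 CPM (others 12.7 to 63.5). In S+P C4 replicate 2, *Bid* was at 0 CPM (others 27.6 to 42.0), and in S+P C7 replicate 3, *Bax* was at 39.7 CPM (others 96.8 to 113). These 4 values come from the 3 samples with under 9000 genes detected. In Sensitized replicate 2, *Bid* was at 7.95 CPM (others 31.8 to 33.5), and in Sensitized replicate 3, *Bbc3* was at 31.1 CPM (others 7.20 to 9.81). In S+P C4 replicate 5, *Bak1* was at 2.03 CPM (others 0 to 0.574), and in S+P C5 replicate 2, *Pmaip1* was at 38.2 CPM (others 9.49 to 16.9).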

How the results depend on the processing

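The number of members past both thresholds was 0 in every comparison with edgeR. With DESeq2 it was 1 in Sensitized against Naive and in N+P C5 against N+P C1 (*Bcl2a1b*), 2 for S+P C5 against Sensitized (*Bbc3* and *Bcl2*), the same 2 for S+P C7, 1 in S+P C5 against S+P C4 (*Bbc3*) and 1 in S+P C7 against S+P C4 (*Bcl2*). Without the 3 samples with under 9000 genes it was 1 in Sensitized against Naive, 2 in S+P C5 against Sensitized and 1 in S+P C7 against Sensitized, and with only the groups compared it was 1 in S+P C5 against Sensitized. The 3 samples are in S+P C4 and S+P C7. They reach comparisons among Naive, Sensitized and S+P C5 only through the fit that all groups share. Which part of each setting changed the calls was not tested. Leaving out 1 replicate at a time gave 0 to 0 in each comparison. Subsets share replicate numbers, but nothing in the labels ties a number to a mouse. Deviations of same-numbered samples correlated at 0.161 on average in S+P (16 pairs, lowest 0.0974) and at 0.0749 in N+P (3 pairs, lowest 0.0225), and other pairs at -0.0196 and -0.0374. Every N+P sample, but not every S+P sample, correlated best with its own number. The replicate block gave 0 members in the 4 comparisons of such subsets, with *Bcl2a1b* at 2.37 (adjusted p = 0.316) in N+P C5 against N+P C1, and changed no other call. No direction reversed among the members' named results. *Bcl2* in S+P C7 against S+P C4 went from -1.15 to -0.74 without S+P C4 replicate 3. A mean of at least 10 CPM leaves *Bbc3* untested. Scaling by library size alone moved the median of all genes by 0.14 in Sensitized against Naive. The counts of *Bbc3* in S+P C5, 0 to 30 per sample, limit its fold change.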
